A study of Homo sapiens with 4 samples.

Results

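Histone genes and histone variants were followed in U118-MG cells, an established human glioma line. Members were the rows whose gene name is that of a numbered H1, H2A, H2B, H3 or H4 gene, or is H2AX, H2AZ1, H2AZ2, H2AJ, H3-3A, H3-3B, MACROH2A1 or MACROH2A2. The rule found 78 genes among the 61806 of the table: 65 replication-dependent genes, 10 polyadenylated variants and 3 germline H1 genes (H1-6, H1-7 and H1-8), which had no counts. The SPNS2 group (2 libraries) carried a lentiviral pCDH vector with SPNS2 under its CMV promoter; SPNS2 moves sphingosine 1-phosphate, a signalling lipid, out of cells. The NC group (2 libraries) carried the negative control vector, and both groups are labelled wild type and grew in DMEM with 10% fetal bovine serum. The labels do not say whether the cells were pools or clones, nor whether each library had its own culture. The p-values therefore rest on the spread between samples alone, and that spread may be technical.

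Histones package DNA: H2A, H2B, H3 and H4 form the nucleosome core, and H1 binds the linker DNA between cores. Replication-dependent histone genes are transcribed mainly in S phase, and their mRNAs have no poly(A) tail but end in a short stem-loop that SLBP, the stem-loop binding protein, holds during processing, export and translation. Variant histones come from single genes with ordinary polyadenylated mRNAs and are made throughout the cell cycle. Some replication-dependent genes also give longer polyadenylated mRNAs, known from differentiating and resting cells. How RNA was selected for these libraries is not given in the sources used here, and it bears on every level of a replication-dependent gene.

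The libraries held 31353373 and 34125159 counts in SPNS2 cells, and 31513400 and 32992150 in NC cells. SPNS2 itself was at 239.8 and 246.5 CPM (counts relative to the library's TMM-scaled total) in SPNS2 cells, against 1.31 and 1.4 CPM in NC cells, which fits the labels. Mesenchymal markers of the line were abundant in both groups: VIM averaged 6524 ± 428 CPM in SPNS2 cells and 4392 ± 497 CPM in NC cells (SD, n = 2 each), whereas GFAP, SOX2, OLIG2 and AQP4 had 0 to 8 counts per library. Of the 12 markers on that list 8 could be tested, of which 2 rose (VIM and SLC1A3) and 2 fell (NES and CHI3L1). SLC1A3, an astrocyte glutamate transporter, had 621 and 595 counts in SPNS2 cells, against 36 and 31 in NC cells (log2 fold change 4.21, adjusted p = 0.0016). NES had 311 and 365 counts in SPNS2 cells, against 552 and 684 in NC cells, and CHI3L1 had 284 and 302 in SPNS2 cells, against 1001 and 652 in NC cells. Of the 10 markers of other cell types, 7 were too low to test, and the list summed to 73 to 82.5 CPM in SPNS2 cells and 115 to 133.4 CPM in NC cells, most of it CD68, a marker of macrophages that was at 76.2 and 65.6 CPM in SPNS2 cells, against 129.7 and 110.3 CPM in NC cells. PECAM1, an endothelial marker, was at 6.04 and 6.71 CPM in SPNS2 cells, against 2.5 and 3.57 CPM in NC cells. CD3E, CDH5, RBFOX3 and HBB had 0 counts in both SPNS2 libraries. In the NC libraries CD3E had 0 and 10 counts, CDH5 3 and 2, HBB 3 and 0, and RBFOX3 none. PTPRC, EPCAM and KRT5 had 0 to 10 counts per library. The part of these markers in the results was not tested. RN7SK, an abundant RNA without a poly(A) tail, was read 134 and 191 times in SPNS2 cells, and 89 and 177 times in NC cells. The 8 tested RNAs listed as of that kind averaged from 0.78 CPM (SNORD3A) to 178 CPM (MALAT1) over the 4 libraries. The short RNAs RN7SL2 and RN7SK averaged 26.5 and 4.53 CPM. Whether every form of each listed RNA lacks a tail was not checked. None of these 8 was called by edgeR (1 at an unadjusted p under 0.05, adjusted p 0.0843 to 0.99).

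The stem-loop is the sequence that sets the replication-dependent class apart, so it is shown for those members that fell and whose GENCODE 29 model runs past the stop codon, and for H2AX. H2AC6 has it at chr6:26124669-26124684 on the plus strand, H2BC4 at chr6:26123472-26123487, H2BC21 at chr1:149886188-149886203, H4C15 at chr1:149860769-149860784 and H2AX at chr11:119094898-119094913, the last 4 on the minus strand (GRCh38). Capitals mark the 6 paired bases on each side, and lower case the loop of 4 bases.
H2AC6 stem-loop: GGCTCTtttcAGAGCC
H2BC21 stem-loop: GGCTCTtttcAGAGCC
H2BC4 stem-loop: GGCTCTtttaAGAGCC
H4C15 stem-loop: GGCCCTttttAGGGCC
H2AX stem-loop: GGCCCTtttaAGGGCC
H2AC6 and H2BC21 had the same 16 bases, H2BC4 differed from them within the loop, and H4C15 and H2AX carried another stem. Within the first 150 bases after the stop codon, the stem-loop was found in 25 of the 26 replication-dependent members with at least 60 annotated bases there. It was found in 1 of 10 polyadenylated variants, H2AX, and in 7 of 18670 other genes (0.0375%). H1-2 and H2BC12, both abundant here, have GENCODE 29 models that end at the stop codon, so this window is empty for them.

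Promoters are shown for 5 of the 6 replication-dependent genes that fell, 3 of them H2B genes, to set their motifs side by side. The window is RefSeq's, 250 bases before to 50 after the start (GRCh38.p14), and 72 of the 78 members had one. Capitals mark the TATA box (letters TATAAA), the CCAAT box (letters CCAAT) and the octamer (letters ATTTGCAT), searched on both strands, where matches may overlap. H2BC4 and H2AC6 are divergent neighbours whose windows share 255 bases, so the H2BC4 window (chr6:26123877-26124176, minus strand) stands for both. The others are H2BC12 (chr6:27146809-27147108), H2BC21 (chr1:149886633-149886932) and H1-2 (chr6:26056421-26056720), all on the minus strand.
H2BC4 promoter: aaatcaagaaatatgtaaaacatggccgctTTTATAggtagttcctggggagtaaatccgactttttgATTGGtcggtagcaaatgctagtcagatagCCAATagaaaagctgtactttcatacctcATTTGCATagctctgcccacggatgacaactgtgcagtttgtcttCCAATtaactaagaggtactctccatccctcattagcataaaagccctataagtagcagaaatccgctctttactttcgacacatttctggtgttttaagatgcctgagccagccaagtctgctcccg
H2BC12 promoter: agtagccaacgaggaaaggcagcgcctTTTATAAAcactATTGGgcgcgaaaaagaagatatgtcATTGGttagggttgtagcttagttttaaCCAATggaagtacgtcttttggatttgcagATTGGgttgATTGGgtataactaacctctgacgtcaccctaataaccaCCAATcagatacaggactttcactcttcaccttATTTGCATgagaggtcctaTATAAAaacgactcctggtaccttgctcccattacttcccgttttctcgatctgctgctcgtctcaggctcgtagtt
H2BC21 promoter: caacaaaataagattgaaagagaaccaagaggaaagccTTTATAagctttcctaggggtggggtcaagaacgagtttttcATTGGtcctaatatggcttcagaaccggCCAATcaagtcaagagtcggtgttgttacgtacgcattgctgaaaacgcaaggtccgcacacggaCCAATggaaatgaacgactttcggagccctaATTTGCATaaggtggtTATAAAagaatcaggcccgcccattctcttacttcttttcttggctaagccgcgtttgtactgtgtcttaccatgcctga
H1-2 promoter: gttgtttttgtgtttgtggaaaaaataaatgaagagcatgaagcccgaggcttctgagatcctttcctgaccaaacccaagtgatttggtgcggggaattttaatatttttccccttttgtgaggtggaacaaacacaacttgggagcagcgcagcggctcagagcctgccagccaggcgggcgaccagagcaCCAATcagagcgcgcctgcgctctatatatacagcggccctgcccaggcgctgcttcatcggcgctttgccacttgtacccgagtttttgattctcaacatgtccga
The octamer stood in all 3 H2B windows and not in that of H1-2. Over the replication-dependent members it was in 26 of 60 windows (43.3%): 14 of 17 for H2B, 11 of 15 for H2A, 1 of 11 for H3, and 0 of 12 for H4. CCAAT was in 51 of 60 (85%) and TATAAA in 41 of 60 (68.3%), against 35.7% and 12% of all 27305 windows, of which 1.8% held the octamer. Of the 6 members that fell, 4 had the octamer (66.7%), against 22 of the 54 other replication-dependent windows (40.7%). Those 4 were H2AC6 and the 3 H2B genes, of families in which most windows held it. The octamer of H2BC4 and H2AC6 is 1 site within their shared bases. A link between the octamer and the fall was not tested. The windows of H4C14 and H4C15 were identical at all 300 bases and held none of the 3 motifs.

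Reads from replication-dependent histone genes were fewer in SPNS2 cells, while the summed reads of the variants overlapped between the groups. The 65 replication-dependent genes summed to 104.3 and 99.4 CPM in SPNS2 cells, against 205.7 and 197.5 CPM in NC cells, a ratio of 0.505. They made up 6.31% and 6.93% of all histone reads in SPNS2 cells, against 13.4% and 12.6% in NC cells. The 10 variants summed to 1547 and 1334 CPM in SPNS2 cells, and 1330 and 1369 CPM in NC cells, so the libraries of the groups overlapped. That sum joins variants on both sides of 0: of the 9 tested, 4 had a log2 fold change above 0 and 5 below. Taken singly, 8 of these 9 showed no overlap of the groups, so the sum does not show that each variant was unchanged. All members together took 0.162% and 0.14% of the counts in SPNS2 cells, and 0.156% and 0.16% in NC cells. These sums are descriptions with no test. In bulk RNA, fewer cells that make a transcript and less of it per cell cannot be told apart.

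All 5 replication-dependent families were lower in both SPNS2 libraries than in both NC libraries. The 5 linker H1 genes summed to 28.5 and 26.3 CPM in SPNS2 cells, against 63.7 and 70.7 CPM in NC cells (ratio 0.408). The 16 H2A genes summed to 27.5 and 23.2 CPM in SPNS2 cells, against 50.6 and 38.6 CPM in NC cells (ratio 0.569). The 17 H2B genes summed to 29.2 and 33.2 CPM in SPNS2 cells, against 65.1 and 56.9 CPM in NC cells (ratio 0.512). H3 and H4 contributed far fewer reads. The 13 H3 genes summed to 6.66 and 5.37 CPM in SPNS2 cells, against 8.49 and 9.63 CPM in NC cells, and the 14 H4 genes to 12.4 and 11.2 CPM in SPNS2 cells, against 17.9 and 21.7 CPM in NC cells. When each family was fitted as 1 row in place of its members, the log2 fold changes were -1.29 (H1), -0.81 (H2A), -0.97 (H2B), -0.59 (H3) and -0.74 (H4).

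**Figure D1:**
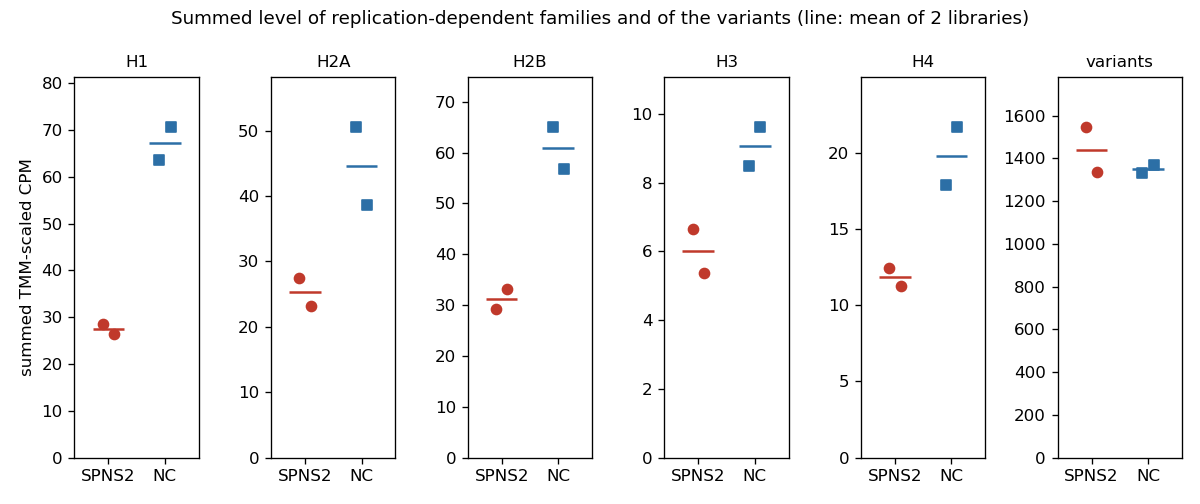
Summed TMM-scaled CPM (y axis, from 0, scaled per panel) of the replication-dependent genes of each family and of the 10 polyadenylated variants, in SPNS2 and NC cells; each point is a library and each line the mean of 2. In the 5 family panels both SPNS2 libraries lie below both NC libraries, and among the variants they overlap.

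A few genes held most of these reads. The 6 replication-dependent genes that fell took 61.1% and 57.2% of the replication-dependent reads in SPNS2 cells, against 74% and 72% in NC cells. Because these 6 were picked for having fallen, their smaller share in SPNS2 cells follows from the choice and is no separate result. H1-2 alone took 23.9% and 22.6% in SPNS2 cells, against 30.3% and 34.8% in NC cells. The 59 other replication-dependent genes summed to 40.6 and 42.6 CPM in SPNS2 cells, against 53.5 and 55.4 CPM in NC cells, a ratio of 0.763. Taking out the genes that fell raises this ratio, so it is a description only. Of the 65 genes, 30 did not pass the filter on low counts, among them 10 with no counts in any library.

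Gene by gene, edgeR's quasi-likelihood test (group as the only term, Benjamini-Hochberg adjustment over 17853 tested genes, called at an adjusted p under 0.05) could be made for 44 of the 78 members. It called 8 of the 44 (18.2%), where it called 23.4% of all tested genes. Of the 35 tested replication-dependent genes, 6 fell, none rose and 29 were not called (17.1% lower, against 11.3% of all tested genes; 13 had an unadjusted p under 0.05, and DESeq2 and limma-voom also called 0 higher and 6 lower). Of the 9 tested variants, 1 rose (11.1%, against 12.1% of all tested genes). The share called in either direction was thus no higher among members than among all tested genes, and on its own it is no result about histone genes. The groups did not overlap at 29 of the 44 tested members (65.9%), against 66% of all tested genes. By class, this held for 21 of the 35 replication-dependent genes (60%) and 8 of the 9 variants (88.9%). An unadjusted p under 0.05 was seen for 7 of these 9 variants, and for 6771 of the 17853 tested genes.

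H1-2 and H1-10 encode linker histones. H1-2, a replication-dependent H1 (ENSG00000187837, chr6:26055787-26056428), was at 24.9 and 22.5 CPM in SPNS2 cells, against 62.3 and 68.7 CPM in NC cells. The groups lay far apart, and H1-2 fell with a log2 fold change of -1.47 (SE 0.1, adjusted p = 0.0033). It was the member with the smallest p, and it was called under all 14 alternative settings, with values from -1.54 to -1.39. H1-10, a polyadenylated variant made outside S phase, was at 74 and 61.1 CPM in SPNS2 cells and 81.3 and 110 CPM in NC cells (log2 fold change -0.50, adjusted p = 0.125, not called).

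The other expressed H1 genes pointed the opposite way at low levels. H1-4 had 72 and 61 counts in SPNS2 cells, against 28 and 33 in NC cells, a log2 fold change of 1.16 (SE 0.32, adjusted p = 0.0652). H1-5 had 35 and 67 counts in SPNS2 cells, against 16 and 29 in NC cells (log2 fold change 1.2, SE 0.5, adjusted p = 0.161). Neither was called, and in both the SPNS2 libraries lay above the NC libraries. The median of the 3 tested replication-dependent H1 genes was therefore 1.16, although their summed level was lower in SPNS2 cells. H1-3 had 0 to 5 counts per library and H1-1 none.

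Among the core histones, H2A and H2B genes carried the most reads, and 4 of them fell. These were 1 of 10 tested H2A genes (10%) and 3 of 10 tested H2B genes (30%), against 11.3% of all tested genes. H2AC6, which encodes a replication-dependent H2A (chr6:26124145-26139116), was at 19.9 and 15.3 CPM in SPNS2 cells, against 37.4 and 29.2 CPM in NC cells (log2 fold change -0.92, SE 0.2, adjusted p = 0.0395). H2BC4, its divergent neighbour and an H2B gene (chr6:26114873-26123926), was far lower in level, at 1.01 and 1.17 CPM in SPNS2 cells, against 2.43 and 2.7 CPM in NC cells (log2 fold change -1.24, SE 0.28, adjusted p = 0.0418). Both partners of the shared promoter thus fell. H2BC12, an H2B gene (chr6:27146418-27146798), was at 13.4 and 13.9 CPM in SPNS2 cells, against 36.8 and 29.2 CPM in NC cells (log2 fold change -1.27, SE 0.15, adjusted p = 0.0103). H2BC21, an H2B gene on chromosome 1 (chr1:149884459-149886652), was at 1.69 and 1.98 CPM in SPNS2 cells, against 5.93 and 5.08 CPM in NC cells (log2 fold change -1.58, SE 0.23, adjusted p = 0.0148). In all 4 genes both SPNS2 libraries lay below both NC libraries.

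These 4 calls differed in how much they rested on single libraries. The H2BC12 call was lost without SPNS2 replicate 1 (-1.23, adjusted p = 0.0511). The H2BC4 call was also lost with no filter on low counts (-1.23, adjusted p = 0.0665). The calls of H2AC6, H2BC4 and H2BC21 were lost whichever library was left out, with adjusted p-values from 0.0633 to 0.13, from 0.108 to 0.151 and from 0.0515 to 0.0735. Their fold changes kept the sign in every case, from -1.11 to -0.73 for H2AC6, from -1.35 to -1.12 for H2BC4 and from -1.7 to -1.46 for H2BC21. Without 1 library, the test called 1512 to 2039 genes in all, against 4171 with 4 libraries. H2BC12 shared 74.1% of its 50-base stretches with other GENCODE genes, and which genes these were was not recorded. The similarly named H2BC12L had 1 and 2 counts in SPNS2 cells, against 9 and 7 in NC cells. Of the 50-base stretches of H2BC21, 8.11% were shared, of H2BC4 6.63%, of H2AC6 0.421% and of H1-2 none. Because reads of shared stretches can be assigned to another gene, the level of H2BC12 is less certain than that of H1-2.

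**Figure D2:**
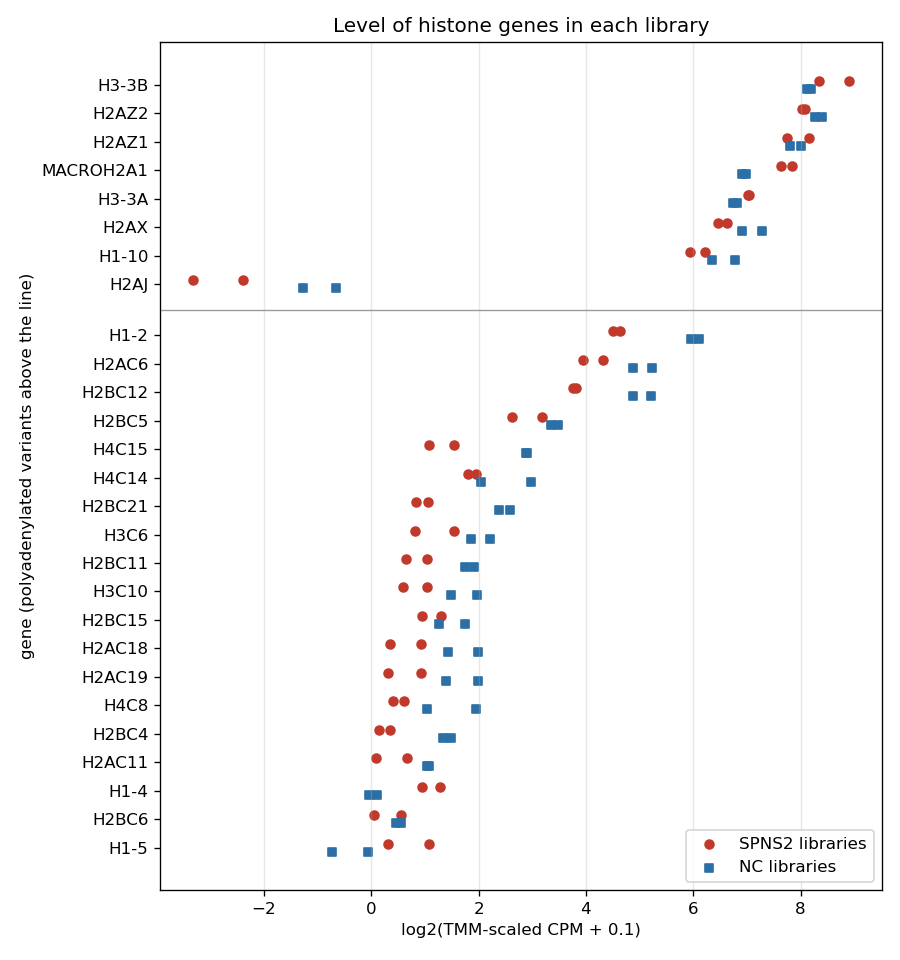
Level on the log2(TMM-scaled CPM + 0.1) scale (x axis) of the 19 replication-dependent genes averaging 1 CPM or more (below the line) and of 8 variants (above it), with SPNS2 libraries as circles and NC libraries as squares. SPNS2 circles lie left of the NC squares for H1-2, H2BC12, H2BC21 and H4C15, and right of them for MACROH2A1, H1-4 and H1-5.

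The remaining genes of the highest levels lay lower in SPNS2 cells without passing the test. H2BC5, an H2B gene with a longer spliced model, was at 6.07 and 8.99 CPM in SPNS2 cells, against 11.1 and 10.1 CPM in NC cells (log2 fold change -0.49, adjusted p = 0.212). H2BC11, also H2B, was at 1.46 and 1.95 CPM in SPNS2 cells, against 3.24 and 3.69 CPM in NC cells (-1.02, adjusted p = 0.0615). Both showed no overlap of the groups. The H3 genes H3C6 and H3C10 had log2 fold changes of -0.85 and -0.96 (adjusted p = 0.16 and 0.105), and H3C6 was at 2.83 and 1.65 CPM in SPNS2 cells, against 3.52 and 4.52 CPM in NC cells. None of the 4 tested H3 genes was called.

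H4 was represented mainly by the copies H4C14 and H4C15, which lie close together on chromosome 1 in opposite orientation. H4C15 (chr1:149854045-149861210) was at 2.83 and 2.01 CPM in SPNS2 cells, against 7.33 and 7.25 CPM in NC cells, and fell with a log2 fold change of -1.59 (SE 0.24, adjusted p = 0.0173). Leaving out NC replicate 1 (-1.58, adjusted p = 0.0752) or NC replicate 2 (-1.6, adjusted p = 0.0725) ended the call. H4C14 was at 3.77 and 3.39 CPM in SPNS2 cells, and 4.02 and 7.76 CPM in NC cells (-0.72, adjusted p = 0.232). The 2 copies shared 97.5% and 97.2% of their 50-base stretches with other genes, and which genes these were was not recorded. The division of reads between H4C14 and H4C15 is uncertain, so their sum is given as well. It was 6.59 and 5.4 CPM in SPNS2 cells, against 11.4 and 15 CPM in NC cells, a ratio of 0.455. Rows of other duplicated genes repeat each other. H2AC18 and H2AC19 differed by at most 2 counts in any library, and H3C14 and H3C15 by 0. They are therefore not independent members, although both rows of a pair enter the counts of genes and the sums above. If a read was counted in both rows of a pair, a sum holds it more than once. Whether that happened is not known, because the handling of multi-mapping reads is not given.

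The fold changes divided by level. Of the 19 replication-dependent genes averaging 1 CPM or more, 17 had a log2 fold change below 0 (89.5%, against 49.2% of all tested genes at that level), with a median of -0.96, and 6 fell (31.6%, against 12.6%). The 2 exceptions were H1-4 and H1-5. Of the 16 tested genes below 1 CPM, 11 lay above 0, with a median of 0.15, against -0.19 over all tested genes below 1 CPM, and none was called (1 at an unadjusted p under 0.05; by DESeq2 and limma-voom, too, only the 6 genes above were called among the tested replication-dependent genes). The 46 replication-dependent genes below 1 CPM, untested ones included, summed to 12.6 and 12.3 CPM in SPNS2 cells, and 12.2 and 8.26 CPM in NC cells. H4C2 had the highest fold change of them, with 10 and 20 counts in SPNS2 cells, against 1 and 2 in NC cells, a ratio of 9.85 (95% exact counting interval 3.06 to 50.4, adjusted p = 0.0543, not called). Taking all 35 tested genes, the median was -0.40, against -0.27 over the 9 tested variants and -0.0085 over all tested genes. The median of the 35 ranged from -0.68 without SPNS2 replicate 1 to -0.16 without NC replicate 1.

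**Figure D3:**
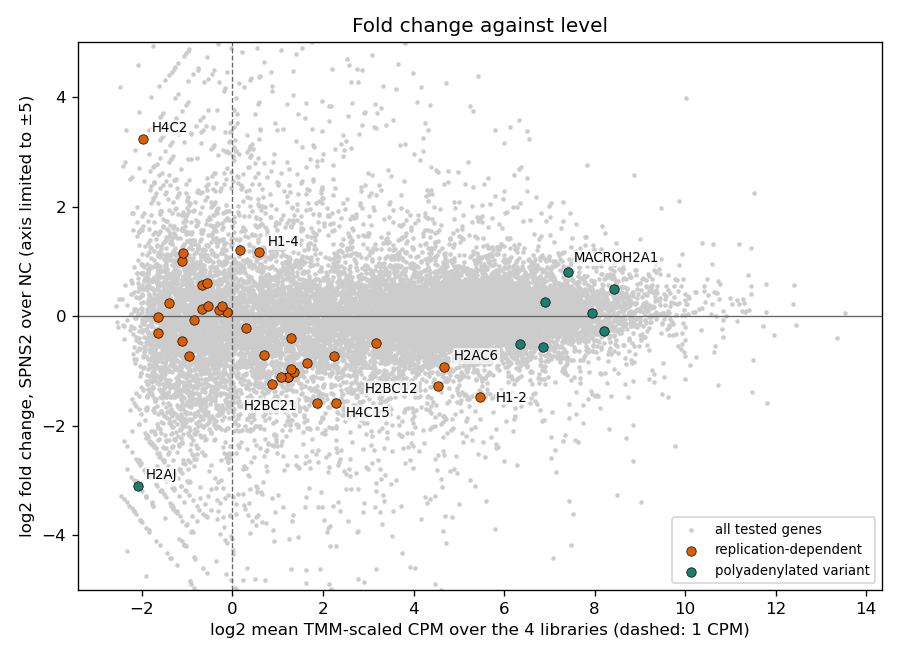
Log2 fold change of SPNS2 over NC (y axis, limited to ±5) against the log2 mean TMM-scaled CPM over the 4 libraries (x axis) for all 17853 tested genes in grey, with the tested replication-dependent genes and 8 polyadenylated variants in colour. Right of the dashed line at 1 CPM, 17 of the 19 replication-dependent genes lie below 0.

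The better-read genes also differed in their annotated models. Of the 19 genes averaging 1 CPM or more, 10 had a GENCODE 29 transcript with more than 1 exon and all 10 of these had a fold change below 0. Of the 16 tested genes with lower means, 1 had such a transcript. H2AC18 and H2AC19 among the 19, and H3C2 among the 16, had no GENCODE 29 match. Their exon number is therefore unknown, and they were not counted as having such a transcript. An exon model of over 600 bases, longer than the coding part of a core histone gene, was found for 16 of the 19 and 4 of the 16. Those 16 of the 19 include the linker genes H1-2, H1-4 and H1-5, with models of 642, 754 and 681 bases and 1 exon. The core histone yardstick does not apply to these linker genes. CPM was not divided by length, and the part of model length in the split by level was not tested. Reads of the stem-loop form and of a longer polyadenylated form of a gene were not separated in these counts.

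Position was described as well, because log2 fold changes differed between chromosome arms in these samples. The 54 replication-dependent genes on chromosome 6 span 25726132 to 27893843 and 11 lie on chromosome 1 between 149782689 and 149887916 (GRCh38). Of those tested, 4 of 28 fell on chromosome 6 (14.3%, near the 11.3% of all tested genes; median -0.26) and 2 of 7 on chromosome 1 (28.6%, median -1.12). Of 19 tested genes of other kinds between the first and last chromosome 6 histone gene, 2 rose (10.5%, near the 12.1% of all tested genes; BTN2A2 and ABT1, named after their values were seen), 0 fell by edgeR (4 had an unadjusted p under 0.05 in either direction), and the median was 0.06. Such small counts do not set the stretch apart, and the difference between its histone and other genes was not tested. The arms as wholes had medians of -0.04 (6p) and 0.13 (1q). With the arm medians removed, 5 of the 6 calls were kept (H1-2, H2AC6, H2BC12, H2BC21 and H4C15), and that of H2BC4 was lost (-1.2, adjusted p = 0.0516).

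Among the variants, MACROH2A1 rose. MACROH2A1 encodes macroH2A1, an H2A variant with a large added domain that is enriched in silent chromatin (chr5:135333900-135399914), and it was at 200.1 and 229.8 CPM in SPNS2 cells, against 126.9 and 120.2 CPM in NC cells. The log2 fold change was 0.8 (SE 0.09, adjusted p = 0.0089). It lies on 5q, whose tested genes had a median of 0.43, and with the arm medians removed it was 0.36 with no call (adjusted p = 0.0615). The call was also lost without NC replicate 2 (0.76, adjusted p = 0.051). The antisense gene PITX1-AS1, which overlaps it, had 49 and 70 counts in SPNS2 cells, and 76 and 70 in NC cells, few beside the 6161 and 7666 of MACROH2A1 in SPNS2 cells. Another antisense gene of MACROH2A1, ENSG00000270021, had 28 and 38 counts in SPNS2 cells, against 72 and 69 in NC cells. Of the 50-base stretches of MACROH2A1, 28.3% were shared with other GENCODE genes, and the part of these in its rise was not tested. MACROH2A2, the paralogue, had no counts in any library.

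The H2A.Z genes, whose products mark promoters, did not pass the test. H2AZ1 was at 287 and 214 CPM in SPNS2 cells, and 259.1 and 222.3 CPM in NC cells, with overlapping groups (log2 fold change 0.06, adjusted p = 0.836). H2AZ2 was at 261.6 and 272.6 CPM in SPNS2 cells, against 307.1 and 337.3 CPM in NC cells (-0.27, SE 0.069, adjusted p = 0.0567). It was called lower under 6 of the 14 alternatives, DESeq2 (adjusted p = 0.0423) among them. Its 2 SPNS2 libraries lay below both NC libraries, though the difference was small.

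H2AX, the variant phosphorylated at DNA breaks and the one with a stem-loop, was at 99.1 and 87.9 CPM in SPNS2 cells, against 120.1 and 154.8 CPM in NC cells. The log2 fold change was -0.56 (SE 0.15, adjusted p = 0.0617), and DESeq2 called it (adjusted p = 0.0091), as did the fit without NC replicate 1 (-0.73, adjusted p = 0.0484). H2AX lies on 11q, whose tested genes had a median of -0.39, and with the arm medians removed its value was -0.17 (adjusted p = 0.473). H2AJ, an H2A variant known from senescent cells, was near the limit of detection, with 0 and 3 counts in SPNS2 cells, against 10 and 18 in NC cells, and a ratio of NC to SPNS2 of 9.47 (95% exact counting interval 2.93 to 48.7, adjusted p = 0.13, not called).

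The H3.3 genes, which encode the same replacement H3, had values above 0 without passing the test. H3-3A was at 130.3 and 132 CPM in SPNS2 cells, against 106.3 and 113.3 CPM in NC cells (log2 fold change 0.26, SE 0.064, adjusted p = 0.0536), and was called by DESeq2 (adjusted p = 0.0377), limma-voom (0.0497) and the robust fit (0.0445). H3-3B was at 480 and 325.4 CPM in SPNS2 cells, against 292.5 and 277.2 CPM in NC cells (0.5, SE 0.2, adjusted p = 0.144). The SPNS2 libraries of H3-3B differed by more than their lower one did from NC, and without SPNS2 replicate 2 the gene was called (0.75, adjusted p = 0.0201). Together the H3.3 genes summed to 610.3 and 457.3 CPM in SPNS2 cells, against 398.8 and 390.5 CPM in NC cells.

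**Figure D4:**
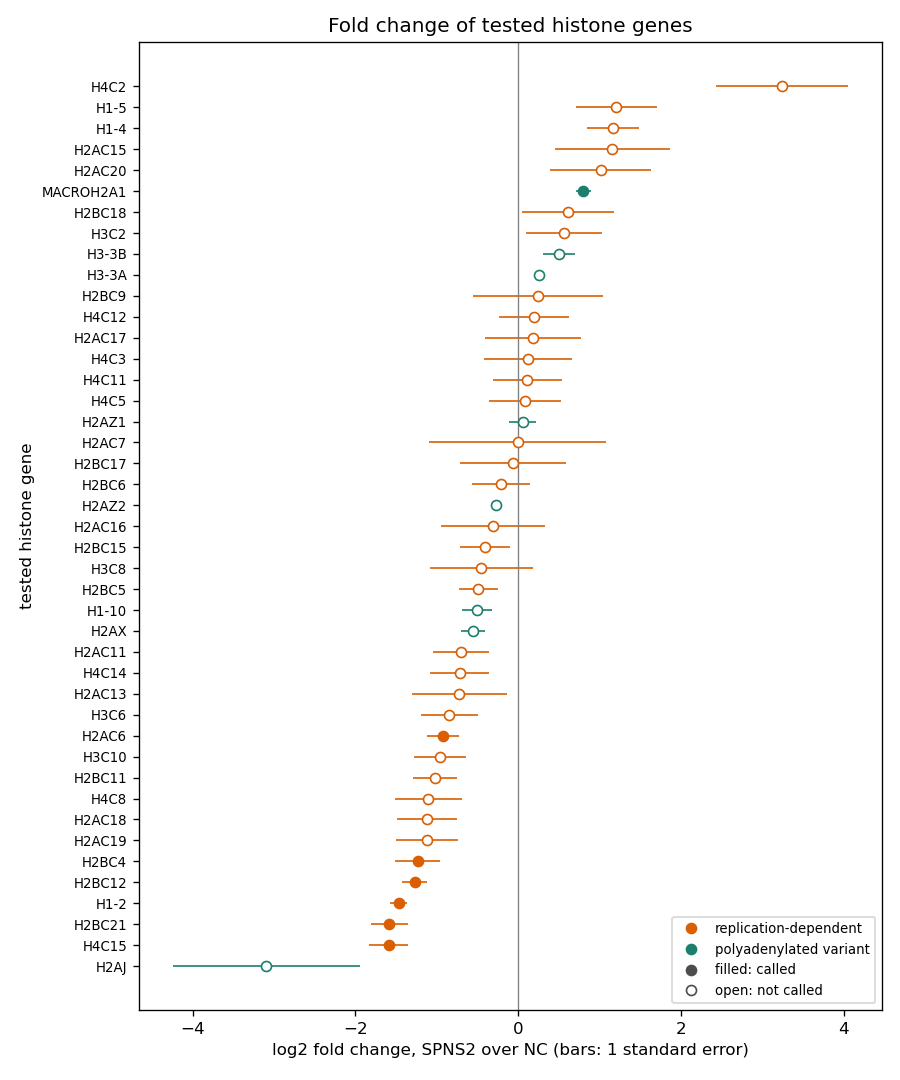
Log2 fold change of SPNS2 over NC (x axis, bars 1 standard error) of the tested histone genes described here, ordered by value, with replication-dependent genes and polyadenylated variants in different colours and called genes filled. MACROH2A1 is the 1 filled point above 0, and the 6 filled points below 0 run from H4C15 (-1.59) to H2AC6 (-0.92).

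Per kilobase of exon model, H1-2 and H2BC12 stood among the variants rather than among the other replication-dependent genes. H2AZ1 had the highest level, 108.8 CPM per kb in SPNS2 cells and 104.5 CPM per kb in NC cells. H1-2 was at 36.9 CPM per kb in SPNS2 cells, against 102 CPM per kb in NC cells, and H2BC12 at 35.8 CPM per kb in SPNS2 cells, against 86.6 CPM per kb in NC cells. H2AC6 was at 10.5 CPM per kb in SPNS2 cells, against 20 CPM per kb in NC cells. The models of H1-2 and H2BC12 hold no untranslated parts, so their length is a minimum and their level per kb a maximum.

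Genes that make and handle histone mRNA were called in both directions. Of 20 tested genes of histone mRNA transcription, processing and decay, 4 rose (20%, against 12.1% of all tested genes), 2 fell (10%, against 11.3%) and 14 were not called, with a median log2 fold change of 0.04. ERI1, an exonuclease that trims the histone mRNA end, rose to 84.3 ± 2.7 CPM in SPNS2 cells, against 60.6 ± 3.93 CPM in NC cells (log2 fold change 0.48, adjusted p = 0.0212). NCBP1, a subunit of the cap-binding complex, and SRRT, its partner ARS2, rose by 0.49 and 0.37 on the log2 scale (adjusted p = 0.0268 and 0.0197). UPF1, a helicase of RNA decay, fell to 184 ± 1.55 CPM in SPNS2 cells, against 242 ± 11.1 CPM in NC cells (log2 fold change -0.39, adjusted p = 0.0177). TUT7, which adds uridines to histone mRNA ends, fell by 0.29 on the log2 scale (adjusted p = 0.0309). Single-library omissions removed every one of these 5 calls in at least 3 of 4 cases, with adjusted p-values up to 0.117.

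SLBP, which binds the stem-loops printed above, was at 95.1 and 94.6 CPM in SPNS2 cells, and 89.2 and 67 CPM in NC cells (log2 fold change 0.28, adjusted p = 0.25). NPAT, the histone gene activator driven by cyclin E and CDK2, was at 44 and 53.1 CPM in SPNS2 cells, and 51.9 and 45.8 CPM in NC cells (-0.01, adjusted p = 0.966). CASP8AP2 (FLASH) and LSM11, both needed for cutting histone pre-mRNA, had log2 fold changes of -0.08 and 0.53 (adjusted p = 0.776 and 0.132). None of these 4 genes was called under any of the 14 alternatives.

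Histone chaperones were mostly not called. Among 30 tested genes 3 rose (10%, near the 12.1% of all tested genes) and 27 were not called, with a median of 0.05: NASP, which holds soluble H3 and H4 and was at 155.5 ± 7.75 CPM in SPNS2 cells, against 110.2 ± 5.01 CPM in NC cells; SUPT16H, a subunit of the FACT complex; and the helicase subunit MCM2, which also binds H3 and H4. Their log2 fold changes were 0.5, 0.4 and 0.39 (adjusted p = 0.0155, 0.0162 and 0.0152). Each was called in only 1 of the 4 fits that left out a library. CENPA, the centromeric H3 variant outside the rule, rose with a log2 fold change of 1.01 (SE 0.21, adjusted p = 0.0355): it was at 27.7 and 20.1 CPM in SPNS2 cells, against 10.7 and 13 CPM in NC cells, and was called in 1 of those 4 fits. Of the other 14 variant genes outside the rule, 12 were too low to test and 2 were not called.

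S phase genes, with which replication-dependent histone mRNAs usually rise and fall, lay on the other side of 0. Among 26 tested genes 10 rose (38.5%, against 12.1% of all tested genes) and 16 were not called, with 24 above 0 and a median of 0.36. MCM7, of the replicative helicase, was at 286.5 and 309.8 CPM in SPNS2 cells, against 188.8 and 188.9 CPM in NC cells (log2 fold change 0.66, adjusted p = 0.0061), and the licensing factor CDC6 rose by 0.67 on the log2 scale (adjusted p = 0.0063); both stayed called whichever library was left out. RRM1, MCM4 and MCM2 rose by 0.46, 0.43 and 0.39 on the log2 scale (adjusted p = 0.0134, 0.0137 and 0.0152). Leaving out NC replicate 1 (0.42, adjusted p = 0.0641) or SPNS2 replicate 2 (0.44, adjusted p = 0.0594) ended the RRM1 call. MCM4 kept its call only without SPNS2 replicate 2 and MCM2 only without SPNS2 replicate 1; in the other fits adjusted p-values ran up to 0.0675 for MCM4 and 0.0756 for MCM2. The difference between these lists and the histone genes was not tested, and the share of cells in S phase was not measured.

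**Figure D5:**
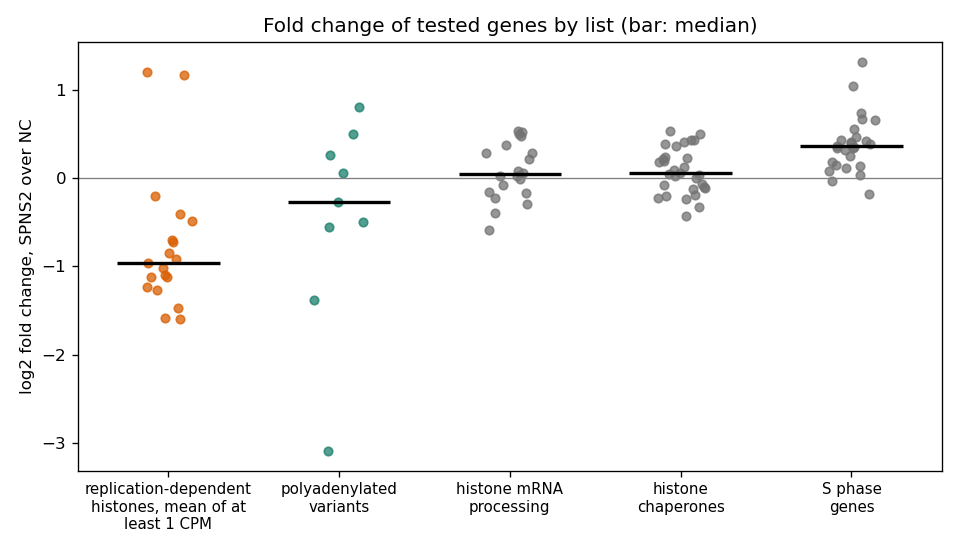
Log2 fold change of SPNS2 over NC (y axis) for the 19 replication-dependent histone genes averaging 1 CPM or more, the 9 tested variants and the tested genes of 3 lists, with bars at the medians. The medians are -0.96 for the replication-dependent histone genes, -0.27 for the variants, 0.04 for histone mRNA processing, 0.05 for chaperones and 0.36 for S phase genes. The variants were not limited by level, and over all 35 tested replication-dependent genes the median was -0.40.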

How the data were processed

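RNA of 4 libraries (2 SPNS2, 2 NC) was analysed from the raw counts per Ensembl gene that the authors deposited, which are not normalized. The submitters' processing notes list hg38, Trim Galore 0.6.9, HISAT2 2.2.1 and featureCounts 0.3 without settings. Which annotation was used, whether strand was counted and how multi-mapping reads were handled is not given in the sources used here. Of the table, 1 row of annotation text without counts was left out. Genes were kept by filterByExpr (minimum count 10, minimum total 15), scaled by TMM and tested two-sided in edgeR 4.0.16 (R 4.3.3) by its quasi-likelihood functions glmQLFit and glmQLFTest after estimateDisp, adjusted by Benjamini-Hochberg over all tested genes. Unless another tool is named, adjusted p-values come from this test. The standard error is the fold change divided by the square root of F. Within both groups the libraries differed beyond counting noise (chi-square per degree of freedom 29.9 in NC and 35.1 in SPNS2). Positions, exon models and transcripts came from GENCODE 29 on GRCh38, or RefSeq for 4 members without a match, and shared 50-base stretches were counted on both strands. The test was tested on simulated counts.

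The members, classes and lists were chosen with earlier results of these data known, so their counts and medians are descriptions. The values of 1 member are not reported here, though it is in the counts, sums and medians. Genes were named by a rule: each called member, each variant, the 10 replication-dependent genes of the highest mean CPM, SPNS2, SLBP, NPAT, CASP8AP2, LSM11 and up to 5 called genes of each list with the smallest p; H1-4, H1-5, H4C2 and the duplicated pairs were added after their values were seen. Alternatives were DESeq2 1.42.0, limma-voom (limma 3.58.1), a robust fit, 3 other scalings, 2 other filters, a replicate block, arm medians removed, and each library left out. Counting intervals cover counting error only.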

Additional observations from a re-analysis of the deposited data

How the results depend on the processing

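The H1-2 call kept its direction and its side of the threshold under all 14 alternatives. DESeq2, limma-voom and the robust fit called 2 members higher, both variants. DESeq2 called 3 variants lower, and the robust fit, upper-quartile factors, library totals and the filter at a mean of 1 CPM called 2. The replication-dependent median was -0.16 with no low-count filter (55 genes) and -0.97 with a mean of at least 1 CPM (19 genes), where the variant median was -0.12. With arm medians removed, 0 members (0 variants) were higher, 2 variants were lower and the variant median was -0.17. CASP8AP2 (0.067) and NPAT (0.38) then changed sign. The causes were not tested.

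Leaving out single libraries gave 0 to 2 members higher and 3 to 4 lower, 2 to 3 replication-dependent genes lower with a median of -0.68 to -0.16, and 0 to 2 variants higher, 1 lower, with a median of -0.34 to -0.20. H2AZ1 ranged from -0.16 to 0.25, CASP8AP2 from -0.28 to 0.11 and NPAT from -0.15 to 0.13. Replicate numbers did not pair the samples (correlation -0.08 between groups). With the replicate block, 4 replication-dependent genes were lower (median -0.39), with H2BC4 and H2BC21 no longer called, and 1976 genes were called in all, against 4171. Over the single genes named, 442 values under alternatives kept call and direction, 69 lost the call, 12 gained it and 8 changed sign. Below a mean of 1 CPM, 9.49% of all tested genes were called and 0 of the 16 tested replication-dependent genes; the part of depth in that was not tested. Families fitted as 1 row were given as values with no test.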
